A study of Mus musculus with 8 samples.

Results

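Calcineurin is the calcium- and calmodulin-dependent phosphatase that carries calcium signals to the nucleus. Its transcripts, those of its RCAN regulators and those of its NFATC substrates were examined in GST (gastrocnemius) muscle of STIM1+/D84G mice, as 9 genes chosen by name out of 15433 in the gene table: Ppp3ca, Ppp3cb and Ppp3r1, Rcan1 and Rcan2, and Nfatc1, Nfatc2, Nfatc3 and Nfatc4. All 9 were listed, with 85 to 11075 reads per library, and none was lost to a filter. STIM1 is the sensor of the sarcoplasmic reticulum that opens Orai channels when calcium stores run low, and the D84G allele changes its calcium-binding EF hand. RNA came from 4 STIM1+/D84G mice (SAX in the sample labels), heterozygous for the germline allele in all cells, and from 4 WT mice. The methods name C57BL/6 mice as controls, and WT animals are also described as littermates. All were 6-month-old females, with 1 library per mouse and 27481177 to 35018732 reads in listed genes per library. The names of the table's columns carry a number, the same in D84G replicate 1 and WT replicates 1 and 2 (the set of 3 libraries) and another in D84G replicates 2 to 4 and WT replicates 3 and 4 (the set of 5 libraries), and what it stands for is not stated.

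When cytosolic calcium rises, calmodulin and the regulatory B subunit activate the catalytic A subunit of calcineurin. The phosphatase then removes phosphates from NFATC proteins, which enter the nucleus and act on transcription with partners such as MEF2, until kinases phosphorylate them again and they leave. RCAN proteins bind calcineurin and at high levels inhibit it, and a short transcript of Rcan1 is itself a known NFAT target, so it is widely used as a readout of the pathway. In skeletal muscle the pathway is known for its part in the slow fiber program and in regeneration.

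The 9 genes moved in opposite directions in STIM1+/D84G muscle. Both catalytic subunits, the regulatory subunit, Nfatc1 and Nfatc3 were lower (Ppp3r1 and Nfatc1 not when libraries were scaled to equal totals), and Rcan1, Rcan2, Nfatc2 and Nfatc4 were higher. With limma over all 15433 genes (log2 of the normalized count plus 0.1, Benjamini-Hochberg adjustment, threshold 0.05), 5 of the 9 passed as lower and 4 as higher, where 24.4% of all genes passed as lower and 25.0% as higher. The calls of Ppp3r1 and Nfatc4 were lost with quantile normalization, and that of Nfatc2 in 8 of 19 alternative analyses. In 8 of the 9 genes, all but Nfatc2, no STIM1+/D84G library overlapped any WT library, 3 of them higher and 5 lower. Of all genes, 46.0% had groups without overlap, 23.0% higher and 23.0% lower. The median log2 fold change was -0.20 for the 9 genes and 0.013 for all genes. A normalized count is a read count divided by the size factor of its library, and fold changes divide STIM1+/D84G by WT. An exact permutation test (2-sided) gave p = 0.0286 for each of the 8 genes without overlap, the smallest value that 4 mice per genotype allow. The RNA is of whole muscle, in which fewer cells of a type and less RNA per cell cannot be told apart. The plot of the 9 genes by mouse shows these values.

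**Figure D1:**
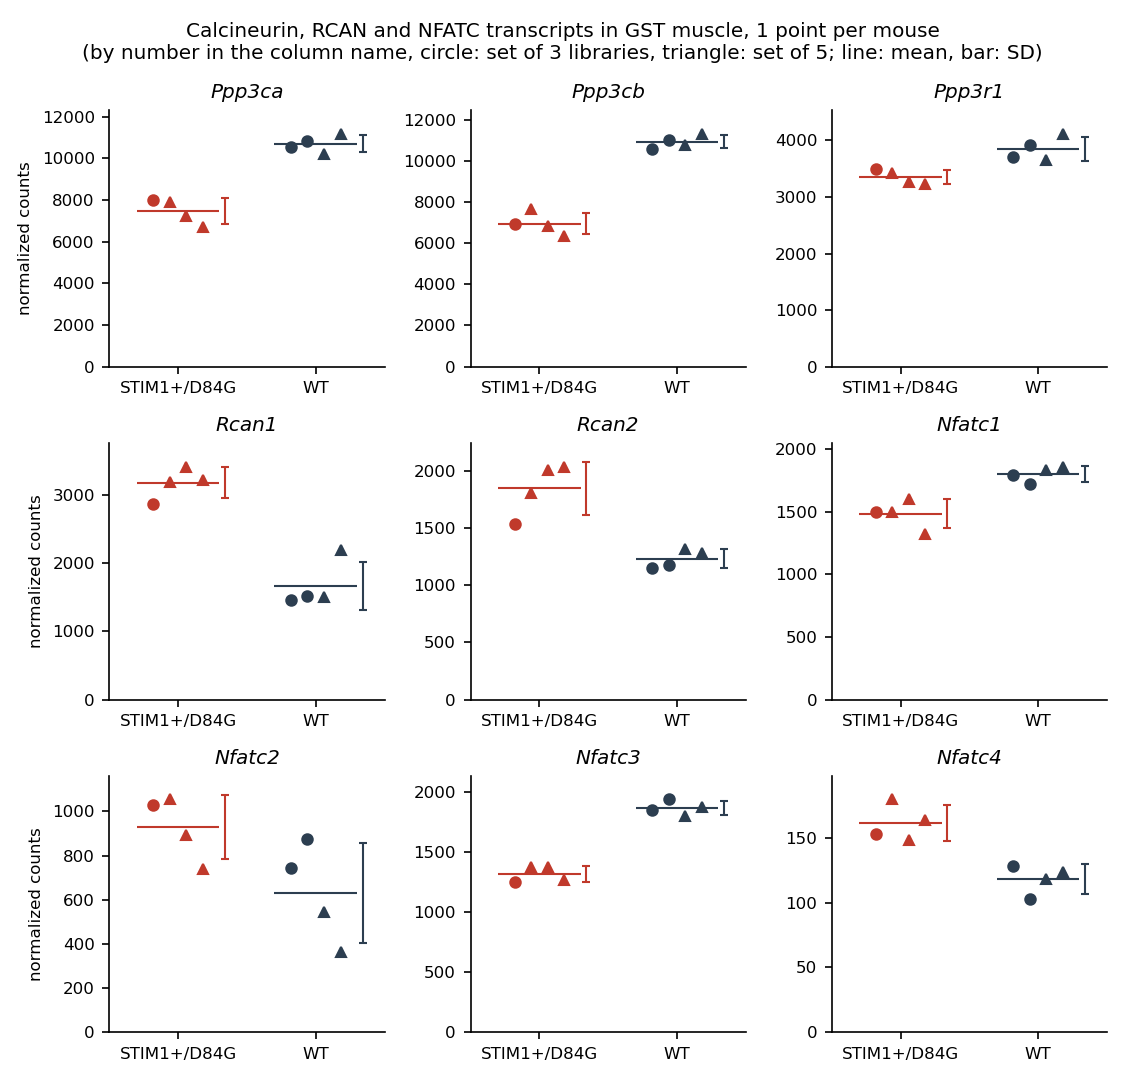
Normalized counts (y axis, from 0) of the 9 genes in GST muscle of 4 STIM1+/D84G and 4 WT mice (x axis), 1 point per mouse, with the mean as a line, the SD as a bar and the set of libraries by column name as the shape of the point. Points of both genotypes overlap for Nfatc2 only, where the lowest STIM1+/D84G mouse had 740.1 and the highest WT mouse 877 normalized counts.

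The catalytic subunits were the most abundant members by count and fell by similar amounts. Ppp3ca, which encodes the alpha form of the catalytic subunit and lies at chr3:136670124-136937727 (mm10), had 7992, 7918, 7221 and 6705 normalized counts in STIM1+/D84G replicates 1 to 4, against 10556, 10852, 10218 and 11184 in WT replicates 1 to 4. Ppp3cb, which encodes the beta form and lies at chr14:20499364-20546573, had 6958, 7644, 6855 and 6376 normalized counts in STIM1+/D84G replicates 1 to 4, against 10597, 11026, 10771 and 11333.5 in WT replicates 1 to 4. For both genes the highest STIM1+/D84G mouse was below the lowest WT mouse by more than the range of the WT mice. The means were 7459 ± 611 in STIM1+/D84G and 10703 ± 412 in WT muscle (SD, n = 4 each) for Ppp3ca, with a log2 fold change of -0.52 (SE 0.058 and adjusted p = 3.13e-05) by limma. For Ppp3cb they were 6958 ± 523 in STIM1+/D84G and 10932 ± 320.4 in WT muscle (SD, n = 4 each), with a log2 fold change of -0.65 (SE 0.053 and adjusted p = 3.78e-06) by limma. Both passed in each of the 19 alternative analyses, with log2 fold changes between -0.56 and -0.17 for Ppp3ca and between -0.70 and -0.31 for Ppp3cb.

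Ppp3cc, the third catalytic gene, known for its role in testis, had 509 ± 29.6 normalized counts in STIM1+/D84G and 582 ± 51.2 in WT muscle (SD, n = 4 each), with overlapping groups and a log2 fold change of -0.19 (SE 0.071 and adjusted p = 0.0443) by limma. This call is close to the threshold and was lost in 14 of the 19 alternatives, among them edgeR (adjusted p = 0.0553), the replicate number as a block (adjusted p = 0.0607) and 6 of 8 fits without 1 library, all but those without WT replicate 1 or D84G replicate 3. With total-count scaling, which divides each library by the sum over all its genes, its log2 fold change turned to 0.16. Ppp3cc made up 3.43% ± 0.344 of the catalytic counts in STIM1+/D84G and 2.62% ± 0.195 in WT muscle. The balance between the main forms moved little. Of the counts of Ppp3ca, Ppp3cb and Ppp3cc, Ppp3cb made up 45.0, 47.7, 46.9 and 47.0% in STIM1+/D84G replicates 1 to 4, against 48.9, 49.0, 49.9 and 49.0% in WT replicates 1 to 4. Every STIM1+/D84G mouse was below every WT mouse, with the nearest pair at 47.7% and 48.9%. Such shares and ratios are formed within a library, and none of them was tested. They do not change when a library is divided by a single factor, but quantile normalization can change them.

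Ppp3r1, which encodes the regulatory B subunit that binds calcium, fell less. It lies at chr11:17159263-17200375 and had 3501, 3427, 3264 and 3233 normalized counts in STIM1+/D84G replicates 1 to 4, against 3705, 3912, 3656 and 4120.0 in WT replicates 1 to 4. The groups did not overlap, although the highest STIM1+/D84G and the lowest WT mouse were close. The means were 3356 ± 128 in STIM1+/D84G and 3848 ± 212 in WT muscle (SD, n = 4 each), with a log2 fold change of -0.20 (SE 0.047 and adjusted p = 0.00536) by limma. The Ppp3r1 counts per 100 counts of Ppp3ca and Ppp3cb were 23.4, 22.0, 23.2 and 24.7 in STIM1+/D84G replicates 1 to 4, against 17.5, 17.9, 17.4 and 18.3 in WT replicates 1 to 4, so that this ratio was higher in every STIM1+/D84G mouse than in any WT mouse. The fall of Ppp3r1 itself depended on the scaling of the libraries. It had adjusted p = 0.194 with limma when the totals left out the 50 most abundant genes, adjusted p = 0.331 with quantile normalization, and a log2 fold change of 0.15 (adjusted p = 0.00578), now higher, with total-count scaling. Of its exon bases, 14.3% are shared with Wdr92 on the same strand, so the split of reads between these genes is uncertain.

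Per kilobase of exon in the GENCODE M21 annotation of mm10, levels can be set side by side between genes. The catalytic gene Ppp3cb had 789.9 ± 59.3 in STIM1+/D84G and 1241 ± 36.4 in WT muscle (SD, n = 4 each) on this scale of normalized counts per kilobase, and Ppp3ca had 747 ± 61.2 in STIM1+/D84G and 1072 ± 41.3 in WT muscle (SD, n = 4 each). The regulatory gene Ppp3r1 had 1039.8 ± 39.8 in STIM1+/D84G and 1192 ± 65.8 in WT muscle (SD, n = 4 each). In STIM1+/D84G muscle Ppp3ca and Ppp3cb did not differ beyond their SD, nor did Ppp3r1 and Rcan1, and in WT muscle Ppp3cb and Ppp3r1 did not. Rcan1 had 1028 ± 73.6 in STIM1+/D84G and 539 ± 113 in WT muscle (SD, n = 4 each) per kilobase, so that it was above both catalytic genes in STIM1+/D84G muscle and below them in WT muscle. Rcan2 followed with 423 ± 53.7 in STIM1+/D84G and 282 ± 18.7 in WT muscle (SD, n = 4 each). The NFATC genes were lower: Nfatc1 had 199 and 241, Nfatc3 112 and 159, Nfatc2 87.8 and 59.7, and Nfatc4 27.7 and 20.3 normalized counts per kilobase in STIM1+/D84G and WT muscle. From Rcan2 down, the order of the genes was the same in both genotypes. All annotated exons were pooled, and the transcripts in use in this muscle may be shorter.

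Rcan1 and Rcan2 rose in STIM1+/D84G muscle, Rcan1 the most of the 9 genes. Rcan1 (Regulator of calcineurin 1) lies at chr16:92391953-92470867 on the minus strand, and its transcripts start at separate promoters far upstream and, in an intron of the longer transcripts, within the gene. Both are shown here because the table gives a single row for the gene, so that the start used by the added reads cannot be read from it. Capitals mark the core of the NFAT recognition sequence, GGAAA, or its reverse complement TTTCC. The windows run from 250 bases before to 50 bases after the start, in the direction of the gene (RefSeq, GRCm38.p6).
Rcan1 upstream start, chr16:92466120-92466419, minus strand: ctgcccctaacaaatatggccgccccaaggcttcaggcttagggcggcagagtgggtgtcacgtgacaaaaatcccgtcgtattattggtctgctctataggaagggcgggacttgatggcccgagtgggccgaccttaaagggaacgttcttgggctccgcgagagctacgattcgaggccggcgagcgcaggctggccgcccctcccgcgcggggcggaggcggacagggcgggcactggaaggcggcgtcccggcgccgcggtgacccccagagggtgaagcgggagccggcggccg
Rcan1 start within the gene, chr16:92400029-92400328, minus strand: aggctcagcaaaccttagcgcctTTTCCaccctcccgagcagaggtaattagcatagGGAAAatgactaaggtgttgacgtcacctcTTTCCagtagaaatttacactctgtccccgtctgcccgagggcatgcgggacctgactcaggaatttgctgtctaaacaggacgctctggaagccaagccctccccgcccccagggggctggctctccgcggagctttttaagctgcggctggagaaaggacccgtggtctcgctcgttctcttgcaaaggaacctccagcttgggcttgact
Ppp3cb, chr14:20546524-20546823, minus strand: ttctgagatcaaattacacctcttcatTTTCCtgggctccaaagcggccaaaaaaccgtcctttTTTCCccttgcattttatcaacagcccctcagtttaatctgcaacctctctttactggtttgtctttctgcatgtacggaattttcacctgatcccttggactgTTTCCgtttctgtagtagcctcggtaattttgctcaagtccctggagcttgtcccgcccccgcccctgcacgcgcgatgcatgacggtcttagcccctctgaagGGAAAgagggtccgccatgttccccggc

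The upstream window of Rcan1 held no match and the window within the gene 3. The window of Ppp3cb, the gene with the largest fall of the 9, is shown beside them and held 4. Of all 32851 RefSeq promoter windows of this length, 61.3% held at least 1 match on either strand, 9.42% at least 3 and 2.65% at least 4. Windows of 7 of the 9 genes were examined, 12 in all, and none of Ppp3ca or Nfatc1. Of the 12 windows, 7 held at least 1 match, among them those of genes that rose and of genes that fell. A match is a run of letters and not a measured site.

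Rcan1 had 2863, 3189.6, 3411 and 3217 normalized counts in STIM1+/D84G replicates 1 to 4, against 1460.1, 1514, 1494 and 2185 in WT replicates 1 to 4. Every STIM1+/D84G mouse was above every WT mouse, and WT replicate 4 stood above the other WT mice. The means were 3170.0 ± 227 in STIM1+/D84G and 1663 ± 348 in WT muscle (SD, n = 4 each), a ratio of 1.91, with a log2 fold change of 0.95 (SE 0.12 and adjusted p = 5.65e-05) by limma. Without WT replicate 4 the log2 fold change was 1.09 (adjusted p = 9.83e-07). Rcan2, which encodes a related regulator of calcineurin and lies at chr17:43801351-44039516, had 1536, 1809, 2017 and 2043 normalized counts in STIM1+/D84G replicates 1 to 4, against 1153, 1179, 1324 and 1282 in WT replicates 1 to 4. Here too the groups did not overlap, and D84G replicate 1 was the lowest of its group. The means were 1851 ± 235 in STIM1+/D84G and 1234 ± 81.9 in WT muscle (SD, n = 4 each), with a log2 fold change of 0.58 (SE 0.086 and adjusted p = 2.44e-04) by limma. Both genes passed in all 19 alternatives. Rcan3, the remaining member of the family, had 196 ± 9.18 in STIM1+/D84G and 189 ± 29.0 in WT muscle (SD, n = 4 each) and did not pass, with a log2 fold change of 0.063 (SE 0.11 and adjusted p = 0.656) by limma.

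The regulators were more abundant relative to the phosphatase in every STIM1+/D84G library. The counts of Rcan1 and Rcan2 per 100 counts of Ppp3ca and Ppp3cb were 29.4, 32.1, 38.6 and 40.2 in STIM1+/D84G replicates 1 to 4, against 12.4, 12.3, 13.4 and 15.4 in WT replicates 1 to 4. The lowest STIM1+/D84G mouse, at 29.4, was above the highest WT mouse, at 15.4. The ratio averaged 35.1 ± 5.14 in STIM1+/D84G and 13.4 ± 1.45 in WT muscle (SD, n = 4 each), a 2.62-fold difference. It is a ratio of counts and not of molecules, since the genes differ in length.

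**Figure D2:**
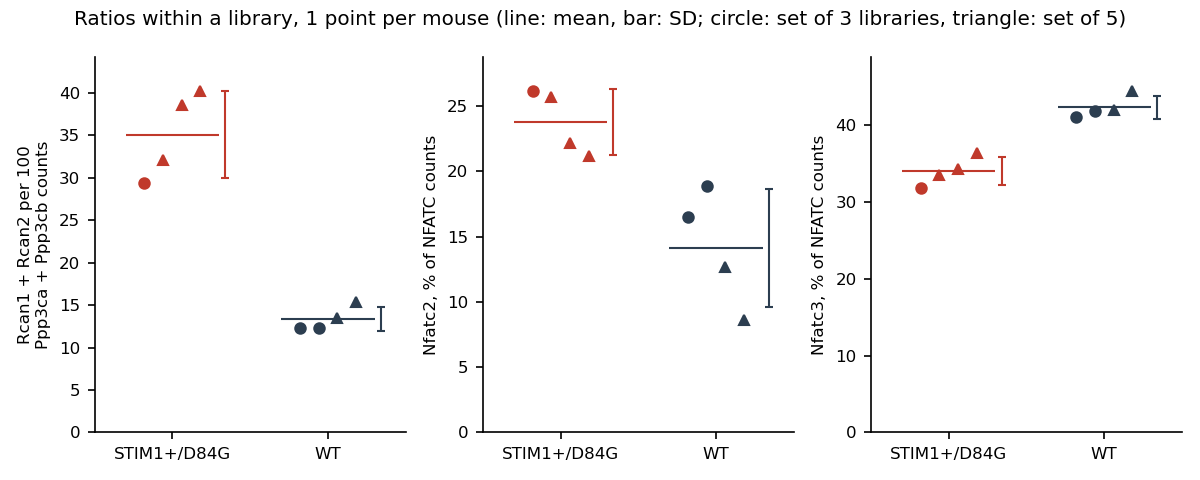
Ratios formed within each library for 4 STIM1+/D84G and 4 WT mice (x axis): counts of Rcan1 and Rcan2 per 100 counts of Ppp3ca and Ppp3cb, and the shares of Nfatc2 and Nfatc3 in the counts of the 4 NFATC genes (y axes, from 0), with the mean as a line and the SD as a bar. The regulator ratio lay between 29.4 and 40.2 in STIM1+/D84G and between 12.3 and 15.4 in WT mice.

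The NFATC genes split into pairs. Nfatc1 and Nfatc3, the most abundant NFATC transcripts in this muscle, were lower in STIM1+/D84G mice (Nfatc1 not with total-count scaling), and Nfatc2 and Nfatc4 were higher. Nfatc3, at chr8:106058840-106130537, had 1253, 1374, 1379.5 and 1269.6 normalized counts in STIM1+/D84G replicates 1 to 4, against 1851, 1938, 1801 and 1875 in WT replicates 1 to 4. The highest STIM1+/D84G mouse was far below the lowest WT mouse. The means were 1319 ± 67.2 in STIM1+/D84G and 1866 ± 56.9 in WT muscle (SD, n = 4 each), with a log2 fold change of -0.50 (SE 0.046 and adjusted p = 8.42e-06) by limma, and the fall passed in all 19 alternatives. Nfatc1, which encodes an NFAT protein that moves into the nucleus of slow fibers, had 1502, 1498, 1606 and 1327 normalized counts in STIM1+/D84G replicates 1 to 4, against 1792, 1722, 1835 and 1862 in WT replicates 1 to 4. The groups did not overlap. Its means were 1483 ± 116 in STIM1+/D84G and 1803 ± 61.0 in WT muscle (SD, n = 4 each), with a log2 fold change of -0.28 (SE 0.057 and adjusted p = 0.00175) by limma. With total-count scaling its log2 fold change was 0.065 (adjusted p = 0.322), and it stayed lower in the other 18 alternatives. Nfatc3 shares 1.87% of its exon bases with Esrp2 on the opposite strand.

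Nfatc4, which lies at chr14:55823144-55833943 and had the fewest reads of the 9 genes, had 153, 179, 148 and 164 normalized counts in STIM1+/D84G replicates 1 to 4, against 128, 102, 118 and 124 in WT replicates 1 to 4. Every STIM1+/D84G mouse was above every WT mouse. The means were 161 ± 13.8 in STIM1+/D84G and 118 ± 11.2 in WT muscle (SD, n = 4 each), with a log2 fold change of 0.45 (SE 0.10 and adjusted p = 0.00334) by limma. It did not pass with quantile normalization, where the log2 fold change was 0.24 (adjusted p = 0.071). Nfatc2, a main NFAT of lymphocytes that is also known for its part in the growth of new muscle fibers, lies at chr2:168476410-168601657 and had 1029, 1055, 893 and 740.1 normalized counts in STIM1+/D84G replicates 1 to 4, against 743, 877, 543 and 363 in WT replicates 1 to 4. The groups overlapped, and WT replicates 3 and 4 were the lowest of all 8 libraries. The means were 929 ± 145 in STIM1+/D84G and 632 ± 226 in WT muscle (SD, n = 4 each), with a log2 fold change of 0.62 (SE 0.23 and adjusted p = 0.0436) by limma and an exact permutation p of 0.0857 (2-sided). The call was close to the threshold. The adjusted p was 0.0506 with edgeR and 0.109 with DESeq2 on the recovered reads, and above 0.05 in limma when any 1 of WT replicates 3 and 4 and D84G replicates 1 to 4 was left out, with a log2 fold change of 0.38 (adjusted p = 0.0812) without WT replicate 4.

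Nfatc2 differed between the sets of libraries given by the column names. In the set of 3 libraries, the single STIM1+/D84G library had 1029 normalized counts and the WT libraries averaged 810.3, a log2 difference of 0.35. In the set of 5 libraries, 3 STIM1+/D84G libraries averaged 896 and 2 WT libraries 453, a log2 difference of 1.0. Within each set, every STIM1+/D84G library was above every WT library. With the set as a covariate in limma the log2 fold change of Nfatc2 was 0.77 (adjusted p = 0.00266), with the set of 5 libraries alone 1.0 (adjusted p = 0.00294), and with the replicate number as a block 0.62 (adjusted p = 0.0016). The other 8 genes had the same direction within each set. Rcan1 had log2 differences of 0.95 and 0.86 within the sets of 3 and 5 libraries, and Ppp3cb -0.64 and -0.67.

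The makeup of the NFATC transcripts differed between the genotypes. Of the counts of the 4 NFATC genes, Nfatc3 made up 31.8, 33.5, 34.3 and 36.3% in STIM1+/D84G replicates 1 to 4, against 41.0, 41.8, 41.9 and 44.4% in WT replicates 1 to 4. Nfatc2 made up 26.1, 25.7, 22.2 and 21.1% in STIM1+/D84G replicates 1 to 4, against 16.5, 18.9, 12.6 and 8.60% in WT replicates 1 to 4. For both shares the groups did not overlap, also for Nfatc2, whose counts did. Nfatc4 made up 4.15% ± 0.454 in STIM1+/D84G and 2.68% ± 0.324 in WT muscle, and the share of Nfatc1 overlapped between the groups at 38.1% ± 1.40 in STIM1+/D84G and 40.9% ± 3.12 in WT muscle (SD, n = 4 each). The summed counts of the family were 3892 ± 270.4 in STIM1+/D84G and 4419 ± 192 in WT muscle.

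**Figure D3:**
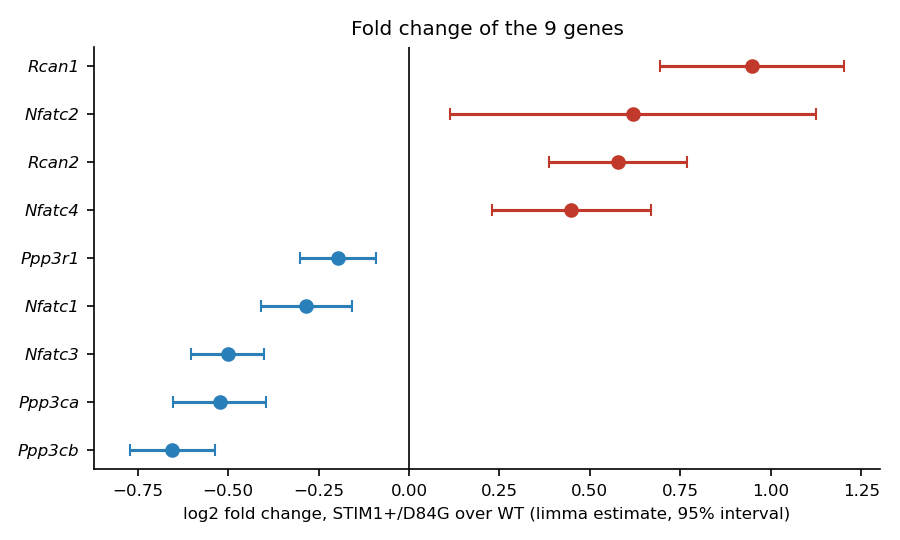
Log2 fold change of STIM1+/D84G over WT (x axis) for the 9 genes (y axis), with the limma estimate as a point and its 95% interval as a bar. The interval of Nfatc2, from 0.11 to 1.13, is the widest, and that of Rcan1 runs from 0.70 to 1.2.

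The direction of small changes rests on how the libraries are scaled. As deposited, the median over all genes was 0.013 on the log2 scale, and total-count scaling shifts it by 0.35. Of all calls, 50.6% were higher with the deposited scaling, 92.6% with total-count scaling, and 70.3% when the totals left out the 50 most abundant genes, which shifts the median by 0.12. With total-count scaling 61.4% of all genes passed as higher and 4.93% as lower. Under these 3 scalings and quantile normalization, Ppp3ca, Ppp3cb and Nfatc3 were lower and Rcan1, Rcan2 and Nfatc2 higher at an adjusted p under 0.05. With total-count scaling, Ppp3cb had a log2 fold change of -0.31, Ppp3ca of -0.17, Nfatc3 of -0.15 and Rcan1 of 1.30.

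**Figure D4:**
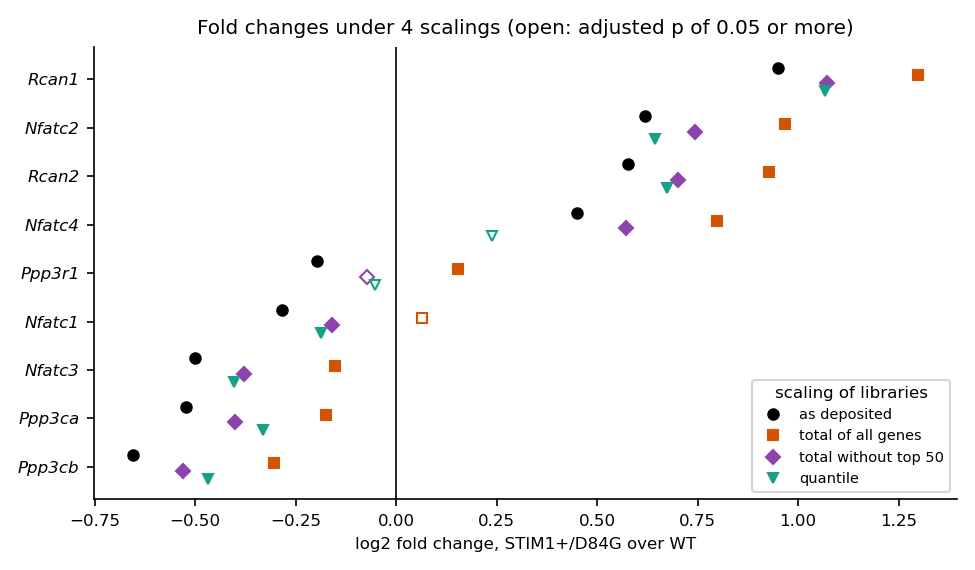
Log2 fold change of STIM1+/D84G over WT (x axis) for the 9 genes (y axis) with the deposited scaling, total-count scaling, totals without the 50 most abundant genes, and quantile normalization. Open symbols did not pass an adjusted p of 0.05. Ppp3r1 and Nfatc1 cross 0 with total-count scaling, at 0.15 and 0.065.

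The genes around calcineurin were examined as 6 lists of 57 genes, of which 55 were in the table (Ppp3r2 and Il4 were not analysed here). Of these, 30 were lower, 13 higher and 12 did not pass, with a median log2 fold change of -0.19. Each list count below can be read against the 24.4% of all genes that were lower and the 25.0% that were higher, and against 4.93% lower and 61.4% higher with total-count scaling. All 10 genes in the list of NFAT kinases were lower with the deposited scaling, with a median of -0.35. With total-count scaling, 5 had a log2 fold change below 0. Dyrk1b and Dyrk2 had the largest falls with the deposited scaling. They are members of the DYRK family, of which DYRK1A and DYRK2 are known to phosphorylate NFAT. Dyrk1b had 1984 ± 119 in STIM1+/D84G and 2874 ± 128 in WT muscle (SD, n = 4 each), a log2 fold change of -0.54 (SE 0.052 and adjusted p = 1.18e-05) by limma, and Dyrk2 had 730.5 ± 73.1 in STIM1+/D84G and 1020.0 ± 159 in WT muscle (SD, n = 4 each), a log2 fold change of -0.47 (SE 0.11 and adjusted p = 0.00398) by limma. These calls depended on the scaling. With total-count scaling 1 was lower and 3 were higher. Dyrk2 had adjusted p = 0.312 by limma with that scaling and 0.0527 in the set of 5 libraries alone. With the 50 most abundant genes left out, or with quantile normalization, 7 were lower and none higher. Of all genes, 14.5% were lower and 34.5% higher with the former, and 26.9% lower and 20.2% higher with the latter. With the deposited scaling the 10 kinases were below the median of all genes. The total scalings shift all genes nearly alike and cannot change this. With quantile normalization, which can, 8 were below that median.

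Of the 8 genes that supply the calcium signal, 6 were lower and 1 was higher, with a median log2 fold change of -0.44. Stim1 itself had 5413 ± 264 in STIM1+/D84G and 7293 ± 167 in WT muscle (SD, n = 4 each), a log2 fold change of -0.43 (SE 0.043 and adjusted p = 1.39e-05) by limma, and -0.082 (adjusted p = 0.129) with total-count scaling. Counts of the gene do not tell the alleles apart and so do not check the genotype. Stim2, the other store sensor, had 823 ± 10.9 in STIM1+/D84G and 1519 ± 110.3 in WT muscle (SD, n = 4 each), a log2 fold change of -0.88 (SE 0.052 and adjusted p = 5.16e-07) by limma. The Orai channel gene Orai2, low in both groups, was higher, with 62.9 ± 16.4 in STIM1+/D84G and 14.7 ± 5.52 in WT muscle (SD, n = 4 each) and a log2 fold change of 2.13 (SE 0.29 and adjusted p = 1.18e-04) by limma. Of all genes 24.4% were lower and 25.0% higher. With total-count scaling 3 of the 8 were lower and 3 higher, where 4.93% of all genes were lower and 61.4% higher.

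Of 17 anchors, inhibitors and immunophilins, 6 were higher, 5 lower and 6 did not pass, with a median log2 fold change of 0.063, where 25.0% of all genes were higher and 24.4% lower. Members of the calsarcin family, which tether calcineurin to the Z-disc, moved in opposite directions. Myoz2, the calsarcin of slow fibers and heart, had 5747 ± 807 in STIM1+/D84G and 2780.2 ± 357 in WT muscle (SD, n = 4 each), a log2 fold change of 1.05 (SE 0.11 and adjusted p = 2.08e-05) by limma, and Myoz3, found in fast fibers, had 1745 ± 189 in STIM1+/D84G and 2659 ± 239 in WT muscle (SD, n = 4 each), a log2 fold change of -0.61 (SE 0.082 and adjusted p = 1.19e-04) by limma. Homer1, a scaffold of calcium signaling complexes, had the largest fall of the list, with 1876 ± 134 in STIM1+/D84G and 3328 ± 171 in WT muscle (SD, n = 4 each) and a log2 fold change of -0.83 (SE 0.056 and adjusted p = 1.24e-06) by limma. Chp2, a calcineurin B homolog, rose, with 148 ± 26.8 in STIM1+/D84G and 104 ± 20.1 in WT muscle (SD, n = 4 each) and adjusted p = 0.020 by limma. Its call was lost with quantile normalization (adjusted p = 0.152), in the set of 5 libraries alone (adjusted p = 0.055) and without WT replicate 2, WT replicate 4, D84G replicate 3 or D84G replicate 4 (adjusted p between 0.0525 and 0.0735). With total-count scaling 10 of the 17 were higher and 2 lower, where 61.4% of all genes were higher and 4.93% lower.

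Of 10 other substrates of calcineurin, 7 were lower and 1 was higher, with a median log2 fold change of -0.22, where 24.4% of all genes were lower and 25.0% higher. Tfeb, a transcription factor of lysosomal genes, had 1918 ± 160.0 in STIM1+/D84G and 3239 ± 219 in WT muscle (SD, n = 4 each), a log2 fold change of -0.76 (SE 0.066 and adjusted p = 6.18e-06) by limma, and Mef2a, a muscle transcription factor, had 3948 ± 128.5 in STIM1+/D84G and 5563 ± 81.4 in WT muscle (SD, n = 4 each), a log2 fold change of -0.50 (SE 0.036 and adjusted p = 1.87e-06) by limma. Bad, a regulator of apoptosis, rose, with 259.5 ± 23.7 in STIM1+/D84G and 217 ± 8.93 in WT muscle (SD, n = 4 each) and adjusted p = 0.0182 by limma. Its call was lost with quantile normalization (adjusted p = 0.169), in the set of 5 libraries alone (adjusted p = 0.0917) and without D84G replicate 2 (adjusted p = 0.0541). With total-count scaling 2 were lower and 5 higher. Of 9 listed genes reported as targets of calcineurin and NFAT in muscle, 5 were higher, 1 lower and 3 did not pass, with a median log2 fold change of 0.35. The slow troponin gene Tnni1 had a log2 fold change of 1.54 (SE 0.11 and adjusted p = 1.72e-06) by limma, the slow myosin gene Myh7 a log2 fold change of 1.31 (SE 0.16 and adjusted p = 6.90e-05) by limma, and Mstn, the gene of the growth inhibitor myostatin, a log2 fold change of -1.37 (SE 0.11 and adjusted p = 3.03e-06) by limma. With total-count scaling 6 of these were higher and 1 lower, where 61.4% of all genes were higher and 4.93% lower.

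**Figure D5:**
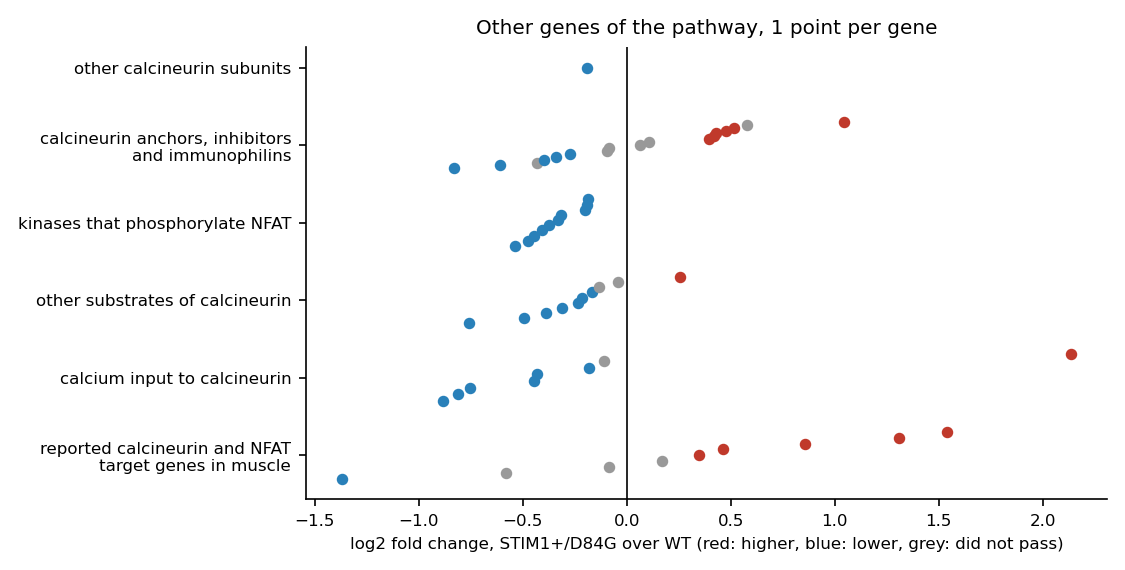
Log2 fold change of STIM1+/D84G over WT (x axis) for the 55 other genes of the pathway in 6 lists (y axis), 1 point per gene, colored by whether it was higher, lower or did not pass in limma. With the deposited scaling shown, all 10 genes in the list of NFAT kinases lie left of 0, against 5 with total-count scaling. The points farthest right are Orai2 at 2.13 and Tnni1 at 1.54.

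The genes whose log2 values over the 8 libraries were most like those of Rcan1, among 10154 genes with a mean of at least 100, were Tgoln1, Tmem248 and Hspa1a (Pearson r of 0.991 for each). Hspa1a, an inducible heat shock gene that may share reads with its near-identical copy Hspa1b, had 140.3, 180.2, 196 and 191 normalized counts in STIM1+/D84G replicates 1 to 4, against 44.6, 49.4, 48.8 and 72.7 in WT replicates 1 to 4, and so shared the high value of WT replicate 4. For Ppp3cb they were Setbp1, Ddx23 and Rabep1 (Pearson r of 0.998, 0.997 and 0.997). The libraries fall into the 2 genotypes, and 843 genes reached an r over 0.9 with Rcan1 and 2128 with Ppp3cb, so these are descriptions only.

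The tissue label and the other cell types of muscle were checked against marker lists. All 8 muscle fiber markers were abundant in every library (7 lower and 1 higher in STIM1+/D84G muscle), with summed counts between 4762720 and 5422650 in STIM1+/D84G and between 8344160 and 8855200 in WT libraries. The summed counts of 8 slow-fiber genes, all higher, lay between 135678 and 206572 in STIM1+/D84G and between 55241 and 79891 in WT libraries, and those of 8 fast-fiber genes, 7 of them lower, between 3561510 and 4329670 in STIM1+/D84G and between 6725840 and 7285530 in WT libraries. Markers of macrophages and fibro-adipogenic progenitors, like the slow-fiber genes, were higher in STIM1+/D84G muscle. So were Rcan1, Rcan2 and Nfatc4, without overlap between the groups, and Nfatc2, with overlapping groups. Ppp3ca, Ppp3cb, Ppp3r1, Nfatc1 and Nfatc3 were lower, like most of the muscle fiber and fast-fiber genes. All 9 macrophage markers were higher, with sums between 7056 and 12262 in STIM1+/D84G and between 2724 and 3369 in WT libraries, and all 7 markers of fibro-adipogenic progenitors, with sums between 47232 and 58169 in STIM1+/D84G and between 25411 and 35454.5 in WT libraries. Of 7 T cell markers, 3 were higher and 2 did not pass, with sums between 52.8 and 72.2 in STIM1+/D84G and between 9.64 and 34.7 in WT libraries, and Cd3d and Cd8a were not analysed here. Of 4 B cell markers only Cd79b was listed, and it did not pass. Of 6 endothelial markers 2 were lower and none higher, and of 6 markers of smooth muscle and pericytes 1 was higher and none lower. Of 5 satellite cell markers 3 were higher and none lower, and none of 5 Schwann cell or 4 adipocyte markers passed by limma. These calls are for the deposited scaling, where 25.0% of all genes were higher and 24.4% lower, and some depended on it. With quantile normalization 2 of 8 muscle fiber and 2 of 8 fast-fiber genes were lower and 1 of each higher. Of all genes, 26.9% were lower and 20.2% higher with that normalization. With total-count scaling 3 of 6 endothelial, 5 of 6 smooth muscle and pericyte, 3 of 5 Schwann cell and 4 of 4 adipocyte markers were higher and none lower, and Cd79b was higher. Total-count scaling called 61.4% of all genes higher and 4.93% lower. Without WT replicate 3, 3 of 4 adipocyte markers were higher, where 24.8% of all genes were higher. The slow-fiber, macrophage and fibro-adipogenic progenitor markers were all higher under each of these scalings. No listed marker was at 0 in all libraries. The part of these cell types in the levels of the 9 genes was not tested.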

How the data were processed

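GST muscle RNA of 4 STIM1+/D84G and 4 WT mice was sequenced by the authors (a stranded mRNA kit per the methods, a SMARTer kit per the labels). The labels name mm10, and the aligner, counter and annotation version are not given in the sources used here. The table's name refers to RPKM, but the deposited signal is a read count over a size factor that is constant within a library, since 100% of values in each library came out as whole reads, with a tolerance of 0.1 read. Listed genes held 27481177 to 35018732 reads in STIM1+/D84G and 28698738 to 33661535 in WT libraries. The authors' columns of their own comparison (fold change, standard error, Wald statistic, p-values) were not used.

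The 9 genes, the lists and the tests were chosen with earlier results of these data known. Linear models were fitted to all 15433 genes, unfiltered, after adding 0.1 and taking log2, using limma 3.58.1 (R 4.3.3, moderated with a mean trend). The procedure was also run on simulated counts with few changed genes, in both directions, which does not bear on the scaling of the libraries. Alternatives were a pseudocount of 1, a minimum mean of 10, 4 other scalings (median-of-ratios size factors gave the deposited values back), edgeR 4.0.16 and DESeq2 1.42.0 on the recovered reads, the replicate number as a block, the set of libraries by column name as a covariate or alone (5 libraries), and each library left out. Deviations from the group means of libraries with the same replicate number had correlations of 0.213, 0.161, 0.150 and 0.123 over 10155 genes. All were above 0.1, and the numbers were used as a pairing in the replicate block only. The main fits did not pair the samples. Such a pairing is a hint from the data alone, since the correlation was higher between some libraries of different numbers (up to 0.371, D84G replicate 1 with WT replicate 2). Of the 4 STIM1+/D84G libraries, 3 correlated best with a WT library of another number from the same set by column name. Named besides the 9 genes are Stim1, Ppp3cc, up to 2 genes per list with the largest rise and 2 with the largest fall among those that passed, and the 3 genes most like the top riser and the top faller; Rcan3 and the cell markers were added outside this rule. A gene that the rule would name is not reported here. Adgre1 was matched by gene ID. Exon lengths came from GENCODE M21. Tables and figures used Python 3.11.15, pandas 2.3.3 and matplotlib 3.10.9.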

Additional observations from a re-analysis of the deposited data

Results flagged for a closer look

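Single libraries that stood far from the other 3 of their genotype were sought in 84 groups of 4 values, those of the 9 genes, of the other named genes of the pathway and of the shares and ratios. Chance gives about 1 such value in 20 groups, and 6 were found.

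Rcan1 had 2185 normalized counts in WT replicate 4, against 1460.1, 1514 and 1494 in the other WT mice. The ratio of Rcan1 counts to 100 counts of Ppp3cb, which holds the same value, was 19.3 in WT replicate 4, against 13.8, 13.7 and 13.9 in the others. Even so, WT replicate 4 was below every STIM1+/D84G mouse in both. Among the catalytic counts, Ppp3ca made up 51.7% in D84G replicate 1, against 49.4, 49.4 and 49.4% in the other STIM1+/D84G mice, and Ppp3cb made up 49.9% in WT replicate 3, against 48.9, 49.0 and 49.0% in the other WT mice. Homer1 had 2076 normalized counts in D84G replicate 2, against 1815, 1818 and 1794 in the others of the genotype, and Orai2 had 87.2 in D84G replicate 4, against 51.9, 55.6 and 56.9.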

How the results depend on the processing

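The counts of 4 higher and 5 lower genes were within 1.5 times these values in the 19 alternatives, apart from total-count scaling, which gave 3 lower genes (and 5 higher) and, of the 55 other pathway genes, 27 higher and 9 lower against 13 and 30. Of all genes, that scaling called 61.4% higher and 4.93% lower, against 25.0% and 24.4% as deposited. With total-count scaling, Ppp3r1 turned to a log2 fold change of 0.15 and Nfatc1 to 0.065. Total-count scaling shifts all genes nearly alike, and their median by 0.35, so it cannot change the place of a gene relative to that median. As deposited, the log2 fold change minus the median of all genes was -0.21 for Ppp3r1 and -0.30 for Nfatc1. With quantile normalization, which can change that place, it was 0.014 for Ppp3r1 and -0.12 for Nfatc1. On the recovered reads edgeR called 3953 genes higher and 3608 lower, against 3859 and 3765 with limma, and with edgeR, DESeq2 or quantile normalization 3 of the 9 genes were higher. The replicate block changed no call of the 9 genes (4 higher, 5 lower) and, of the 55 other pathway genes, lost the call of Ppp3cc and added Ppargc1a as lower. Leaving out each library in turn gave 3 to 4 higher and 5 lower genes, and of the 9 genes only Nfatc2 lost its call, in 6 of 8 cases, with log2 fold changes between 0.38 and 0.80 and adjusted p between 0.0115 and 0.110. Ppp3r1 also lost its call under 2 other scalings and Nfatc4 under quantile normalization; the causes were not tested. The lowest count of any of the 9 genes in a library was 85 reads, and the 4 mice per genotype set the precision.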
